A study of Homo sapiens with 12 samples.

Results

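Aminoacyl-tRNA synthetases are the enzymes that join each amino acid to its transfer RNA (tRNA) before protein synthesis. Of these genes, 35 were taken by name, 19 coding for enzymes of the cytosol and 16, with names ending in 2, for enzymes of mitochondria. Of the 35, 32 had a probe set that names a single gene, 17 cytosolic and 15 mitochondrial, and all 32 passed the filter on low signal, among 10784 genes of the whole series that did. MARS1, QARS1 and TARS2 were covered only by probe sets that also name a microRNA gene and have no value here. The RNA came from HK-2, an immortalized epithelial line from human kidney proximal tubule, and was hybridized to Affymetrix arrays. There were 3 arrays each for Fk at 48 h, control vehicle at 48 h, Fk at 12 h and control vehicle at 12 h, 12 in all, which the labels call biological replicates. Fk is the name the labels give the treatment; they do not spell it out, and its dose was not used here. All cultures grew in a medium with EGF, hydrocortisone, insulin, transferrin and selenite, and were treated near confluence. The series set out to find signatures of kidney toxicity, so the questions for these genes are how they differed between Fk and control cultures and how they differed between the times.

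Each cytosolic synthetase serves one amino acid, or a pair of them in the case of EPRS1, and the mitochondrial set is encoded by separate nuclear genes apart from GARS1 and KARS1, which supply both compartments. Several cytosolic enzymes (EPRS1, IARS1, LARS1, MARS1, QARS1, RARS1 and KARS1) sit with scaffold proteins in the multisynthetase complex, while the others are free. When amino acids run short or the endoplasmic reticulum is stressed, kinases phosphorylate the initiation factor eIF2, translation of the transcription factor ATF4 rises, and ATF4 with C/EBP partners raises genes of amino acid uptake, synthesis and tRNA charging. This is the integrated stress response, and many cytosolic synthetases are known as targets of ATF4, whereas the mitochondrial ones are mostly not. By that general knowledge AARS1, CARS1, EPRS1, GARS1, IARS1, LARS1, MARS1, NARS1, SARS1, TARS1, WARS1 and YARS1 were listed as ATF4-responsive, and FARSA, FARSB, HARS1, KARS1, QARS1, RARS1 and VARS1 as the other cytosolic ones. The split was written with earlier results of these data known, so counts by it only describe these data.

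The promoters are shown because the synthetases that moved most were those listed as ATF4-responsive, and ATF4 with its C/EBP partners binds the C/EBP-ATF response element. Its core, TGATGNAA, was searched on both strands of RefSeq promoter windows (GRCh38.p14) running from 250 bases before a start site to 50 from it on; no other motif was searched. Of the 35 genes, 30 had a window. A match was found for 8 of them, namely AARS1, CARS1, GARS1, IARS1, MARS1, NARS1 and TARS1, which are 7 of the 10 ATF4-responsive genes with a window, and the mitochondrial YARS2. Counted over windows, since a gene can have several, a match stood in 33.3% of 21 cytosolic and 5.56% of 18 mitochondrial synthetase windows, against 1.95% of the 13011 windows of all genes tested. The 6 windows of the other cytosolic synthetases held none. Each stretch below is written 5′ to 3′ on the strand of its gene, with the match in capitals, and is given for some of the genes whose values follow. The stretches of GARS1 and TARS1, whose values also follow, and of MARS1 are not shown.
AARS1 (chr16:70289607-70289736, minus strand): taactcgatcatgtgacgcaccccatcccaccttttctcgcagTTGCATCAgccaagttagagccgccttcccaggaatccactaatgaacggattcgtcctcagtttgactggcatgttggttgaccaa
CARS1 (chr11:3057394-3057523, minus strand): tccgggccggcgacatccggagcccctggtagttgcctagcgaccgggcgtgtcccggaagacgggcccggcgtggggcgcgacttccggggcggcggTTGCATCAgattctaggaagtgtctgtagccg
IARS1 (chr9:92293668-92293797, minus strand): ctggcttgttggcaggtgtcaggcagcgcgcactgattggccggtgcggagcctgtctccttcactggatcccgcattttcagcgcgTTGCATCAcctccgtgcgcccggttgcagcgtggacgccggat
NARS1 (chr18:57621807-57621936, minus strand): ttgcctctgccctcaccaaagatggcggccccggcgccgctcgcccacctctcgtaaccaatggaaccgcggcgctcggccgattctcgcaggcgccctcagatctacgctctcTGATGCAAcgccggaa
YARS2 (chr12:32755998-32756127, minus strand): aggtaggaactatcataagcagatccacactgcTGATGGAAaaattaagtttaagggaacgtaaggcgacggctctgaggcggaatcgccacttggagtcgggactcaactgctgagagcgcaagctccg
The match in AARS1 lay 187 to 180 bases before the start site, and that of IARS1 13 to 6 bases before it. In CARS1 it ran from 2 bases before the start to base 6 of the transcript, and in NARS1 it covered bases 15 to 22. In YARS2 it lay 197 to 190 bases before the start. A match is a run of letters, not a measured binding site.

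HARS1 and HARS2, the cytosolic and mitochondrial histidyl enzymes, are shown as a pair because they start 85 bases apart on chromosome 5 and run in opposite directions, HARS1 on the minus strand and HARS2 on the plus strand. Only 84 bases lie between their first bases. They are written on the plus strand, so that HARS1 runs off to the left and HARS2 to the right, and hold no capitals since the motif was not found in their windows.
HARS1-HARS2 interval (chr5:140691371-140691454, plus strand): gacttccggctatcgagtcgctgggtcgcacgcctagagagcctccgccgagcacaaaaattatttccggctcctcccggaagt

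The median log2 signal of an array was between 2.85 and 2.94. Fk_12h replicate 3 stood apart: over all genes tested it correlated at 0.946 and 0.942 with the other arrays of its group, which correlated at 0.994 with each other, and a control probe set for large-subunit ribosomal RNA read 14.38, against 8.50 to 10.29 on the remaining arrays. Of the labelled cell type's markers, PAX8, KRT8, KRT18, KRT19, EPCAM, CDH1 and CDH2, 7 of the 19 on the array, were at a log2 signal of 4 or above on 3 arrays or more. LRP2, CUBN, AQP1, SLC34A1, SLC5A2, SLC22A6, SLC22A8 and ANPEP, which mark differentiated proximal tubule, did so on 0 arrays. Of the fibroblast markers 3 of 7 did (COL1A1, DCN and LUM), of the endothelial 1 of 5 and of the leukocyte markers 0 of 3. The summed fibroblast signal was 9.85 to 11.01 in Fk and 9.71 to 11.02 in control cultures at 48 h, against 10.78 to 11.11 in Fk and 10.23 to 10.87 in control cultures at 12 h, on the log2 scale, and its part in the results was not tested.

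Of the 11 cytosolic synthetases measured that are listed as ATF4-responsive, 9 were higher at 48 h than at 12 h in Fk and in control cultures, and TARS1 and WARS1 did not pass the test. In control cultures 9 of the 32 synthetases rose between 12 h and 48 h at an adjusted p under 0.05, beside 10.6% of all genes tested, and 1, HARS1, fell, beside 10.9%. In Fk cultures 9 rose, beside 11.5% of all genes, and 1 fell, beside 11.7%, and these were the same 10 genes. AARS1, CARS1, EPRS1, GARS1, IARS1, LARS1, NARS1, SARS1 and YARS1 rose, and no mitochondrial synthetase passed in either arm, although 1 of 15 in Fk and 2 of 15 in control cultures had an unadjusted p under 0.05, beside 37.7% of all genes in Fk and 36.4% in control cultures. The median log2 difference (48 h minus 12 h) of the 17 cytosolic genes was +0.63 in Fk and +0.62 in control cultures, that of the 15 mitochondrial genes +0.10 in Fk and -0.08 in control cultures, and that of all genes tested +0.02 in Fk and +0.01 in control cultures. Arrays at 48 h did not overlap with those at 12 h, and were higher, for 10 of 17 cytosolic and 1 of 15 mitochondrial genes in Fk, beside 19% of all genes, and for 11 of 17 and 1 of 15 in control cultures, beside 25.1%. They lay lower without overlap for 2 of 17 and 1 of 15 in Fk, beside 19.7%, and for 3 of 17 and 3 of 15 in control cultures, beside 24.9%. No label gives a batch, so time in culture and anything else that differed between the 2 harvests cannot be told apart, and in RNA from whole cultures a change in the number of cells of a kind and in RNA per cell cannot be either.

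**Figure D1:**
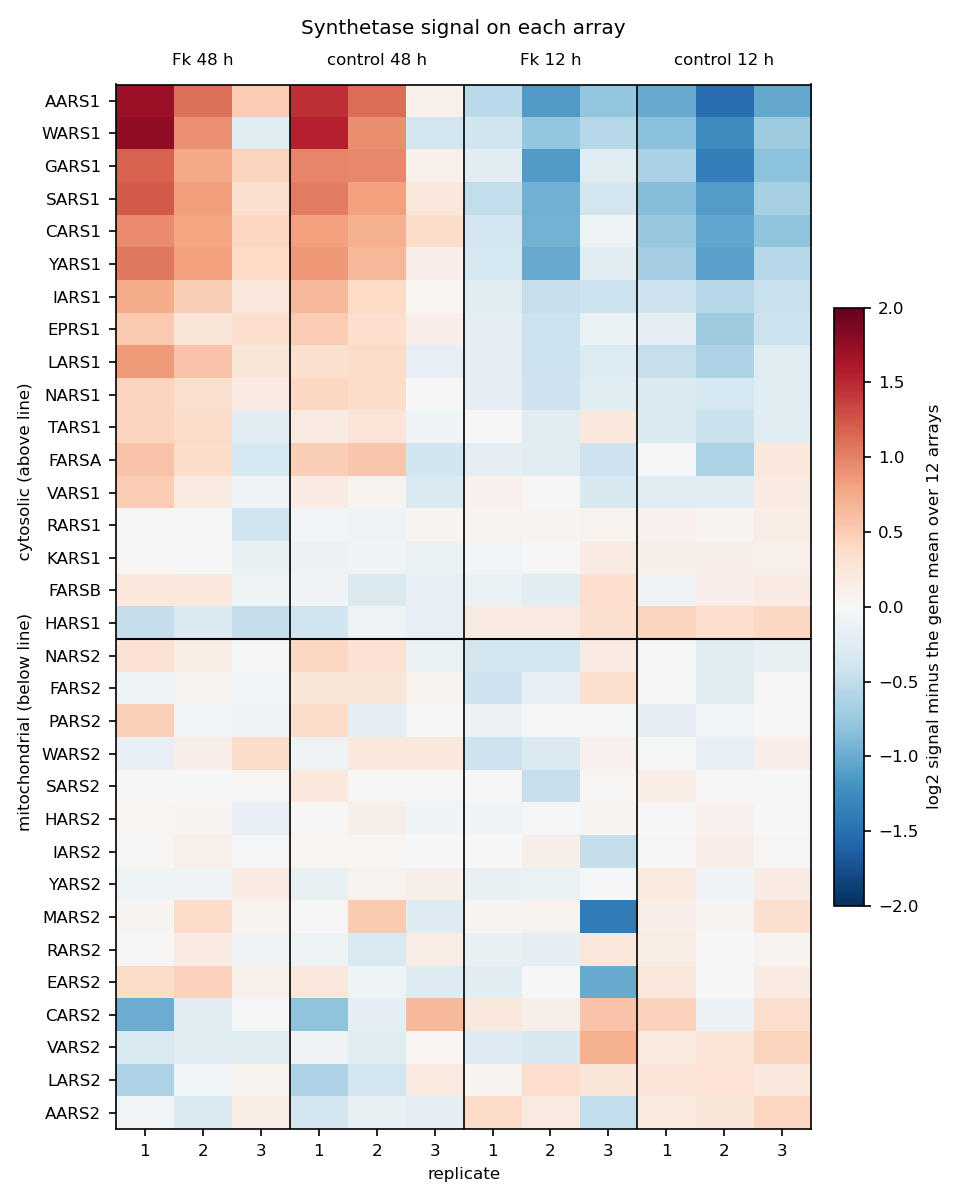
Colour gives, for each of the 32 synthetases (rows, sorted by the time difference in control cultures within each compartment) and each of the 12 arrays (columns, replicates 1 to 3 by group), the log2 signal minus that gene's mean over all arrays. Red in the 48 h columns and blue in the 12 h columns fill the upper cytosolic rows, HARS1 is reversed, and the mitochondrial rows are pale apart from single arrays such as Fk_12h replicate 3 in MARS2 and EARS2.

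AARS1, the alanyl enzyme (chr16:70252298-70289506), differed most. Its log2 signal was 12.29, 11.66 and 11.07 on the Fk arrays at 48 h, against 10.02, 9.43 and 9.77 on the Fk arrays at 12 h. In control cultures it was 12.02, 11.67 and 10.67 at 48 h, against 9.55, 9.04 and 9.54 at 12 h. Every array at 48 h lay above every array at 12 h, and replicate 3 was the lowest of its group at 48 h in both arms. The difference was +1.93 (95% interval +1.10 to +2.76, adjusted p = 0.00646) in Fk and +2.08 (+1.25 to +2.91, adjusted p = 0.00498) in control cultures, that is 3.81-fold and 4.22-fold on the linear scale. 

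SARS1, the seryl enzyme, read 12.81, 12.43 and 11.91 in Fk cultures at 48 h, against 11.10, 10.62 and 11.22 in Fk cultures at 12 h. The control arrays gave 12.63, 12.41 and 11.81 at 48 h, against 10.72, 10.47 and 10.93 at 12 h. The times did not overlap, and SARS1 rose by +1.40 in Fk (adjusted p = 0.00679) and +1.58 in control cultures (adjusted p = 0.00434). CARS1, which charges cysteine and whose match lies across its start site, had 11.60, 11.45 and 11.10 in Fk cultures at 48 h, against 10.28, 9.72 and 10.57 in Fk cultures at 12 h. In control cultures it had 11.48, 11.38 and 11.02 at 48 h, against 9.90, 9.62 and 9.85 at 12 h. Here too the highest array at 12 h, Fk_12h replicate 3, stayed below the lowest at 48 h. CARS1 rose by +1.20 in Fk (+0.70 to +1.69, adjusted p = 0.00536) and +1.51 in control cultures (+1.01 to +2.00, adjusted p = 0.00227).

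GARS1, the glycyl enzyme of both compartments, averaged 13.21 ± 0.37 in Fk and 13.09 ± 0.50 in control cultures at 48 h, against 11.89 ± 0.53 in Fk and 11.47 ± 0.37 in control cultures at 12 h (SD, n = 3 each). Its rise was +1.32 in Fk and +1.63 in control cultures. The Fk call was lost without Fk_12h replicate 2 (+1.02, adjusted p = 0.0576), Fk_48h replicate 1 (+1.13, adjusted p = 0.0745) or Fk_48h replicate 2 (+1.34, adjusted p = 0.0525). It was also lost at an unchanged difference with no filter on low signal (adjusted p = 0.0506) and when only the Fk arrays were fitted (adjusted p = 0.058). YARS1, the tyrosyl enzyme, averaged 11.46 ± 0.34 in Fk and 11.25 ± 0.38 in control cultures at 48 h, against 10.17 ± 0.42 in Fk and 9.91 ± 0.27 in control cultures at 12 h (SD, n = 3 each). That is a rise of +1.28 in Fk and +1.34 in control cultures, with no overlap between the times. A second YARS1 probe set gave +0.48 in Fk and +0.26 in control cultures, the second with an adjusted p of 0.225 when it stood for the gene.

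WARS1, the tryptophanyl enzyme, which interferon also induces, was about as far apart between the times as SARS1 but scattered far more within them. It read 12.50, 11.64 and 10.48 in Fk cultures at 48 h, against 10.33, 9.95 and 10.15 in Fk cultures at 12 h. The control arrays read 12.28, 11.65 and 10.34 at 48 h, against 9.88, 9.47 and 10.01 at 12 h. Replicate 3 at 48 h was low in both arms and sat above the highest array at 12 h by a small margin, and the difference missed the threshold at +1.40 in Fk (adjusted p = 0.0796) and +1.64 in control cultures (adjusted p = 0.0501). Leaving out Fk_48h replicate 3 gave +1.93 in Fk cultures (adjusted p = 0.0203). Leaving out control_48h replicate 3 gave +2.18 in control cultures (adjusted p = 0.0112). In control cultures it also passed at an unchanged difference without Fk_12h replicate 3, Fk_48h replicate 1 or Fk_48h replicate 3 (adjusted p = 0.0477, 0.0324 and 0.0261), and in Fk cultures without control_48h replicate 3 (adjusted p = 0.0413).

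**Figure D2:**
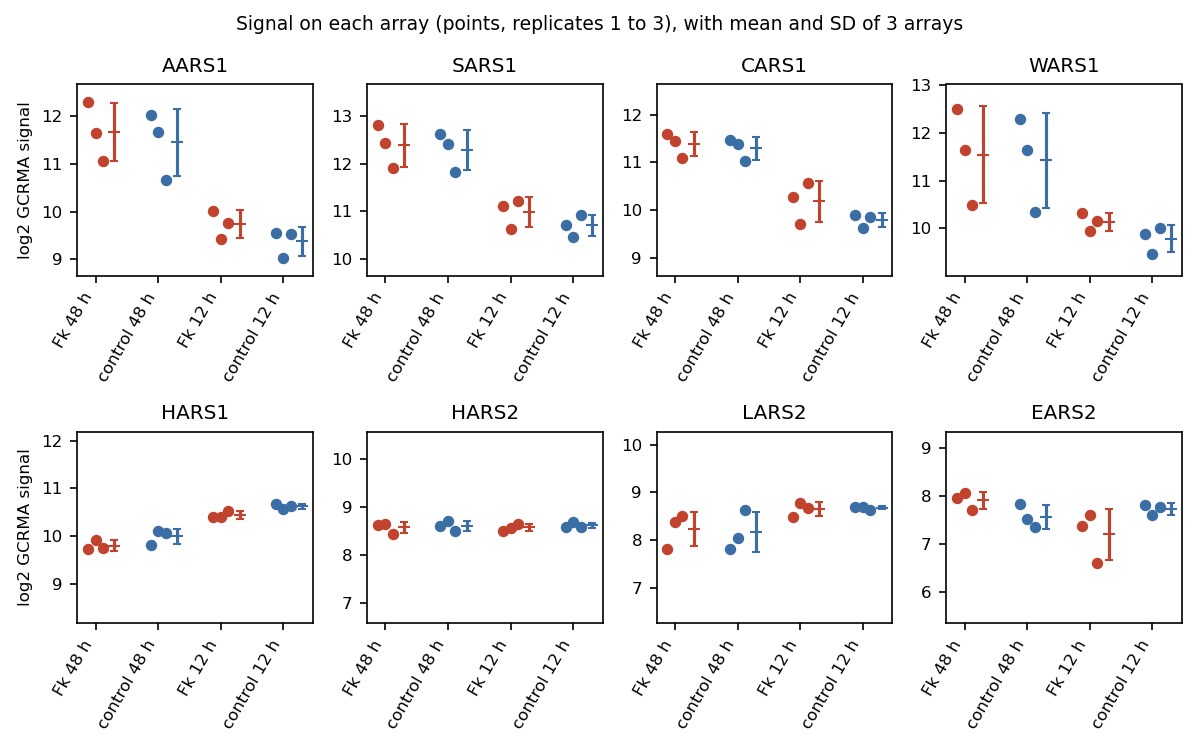
Points are the log2 signal of 8 synthetases on each array, replicates 1 to 3 from left to right within a group, with the mean and SD of 3 arrays to the right of them; all panels span the same range. AARS1, SARS1, CARS1 and WARS1 are higher at 48 h, HARS1 is lower at 48 h, HARS2 is level, and in EARS2 the lowest point is Fk_12h replicate 3 at 6.60.

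Smaller rises were seen for 4 more. IARS1, the isoleucyl enzyme with a match 13 to 6 bases before its start, averaged 13.84 ± 0.26 in Fk and 13.72 ± 0.31 in control cultures at 48 h, against 12.99 ± 0.14 in Fk and 12.88 ± 0.09 in control cultures at 12 h (SD, n = 3 each), differences of +0.85 and +0.84 that passed in each of the 21 settings that gave them. EPRS1, which charges glutamate and proline, rose by +0.63 in Fk and +0.77 in control cultures (adjusted p = 0.0217 and 0.0102). Its Fk call was lost without Fk_12h replicate 2 (+0.53, adjusted p = 0.0684) or Fk_48h replicate 1 (+0.55, adjusted p = 0.0794), and when only the Fk arrays were fitted (adjusted p = 0.0577). NARS1, the asparaginyl enzyme, rose by +0.59 in Fk (adjusted p = 0.0133) and +0.56 in control cultures (adjusted p = 0.0181). Leaving out control_12h replicate 1, 2 or 3, or control_48h replicate 1 or 2, moved its control value to between +0.48 and +0.58 and its adjusted p to between 0.0502 and 0.0735, and leaving out Fk_48h replicate 1 moved its Fk value to +0.52 with an adjusted p of 0.0527. Fitting only the Fk arrays gave NARS1 an adjusted p of 0.0565. LARS1, the leucyl enzyme and also a leucine sensor for mTORC1, rose by +0.86 in Fk (adjusted p = 0.0118) and +0.62 in control cultures (adjusted p = 0.0436). Its other probe sets gave +0.557, +0.655 and +0.028 in Fk, and +0.665, +0.534 and +0.067 in control cultures, so the last was nearly flat. The LARS1 control call was lost without any one of control_12h replicates 1 to 3, control_48h replicates 1 and 2, Fk_12h replicates 1 and 2 and Fk_48h replicate 2, with values of +0.52 to +0.72 and adjusted p of 0.0546 to 0.146, and with no filter on low signal (adjusted p = 0.0821). TARS1, the threonyl enzyme, also has a match at its start site, but its differences of +0.20 in Fk (adjusted p = 0.471) and +0.43 in control cultures (adjusted p = 0.126) did not pass.

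In all, 11 of the 11 ATF4-responsive genes measured had a positive time difference in both arms, and 9 of them passed in each, with medians of +1.20 in Fk and +1.34 in control cultures. Since the list was written with earlier results of these data known, this count is not an independent test of it. Of the genes with a promoter match, AARS1, CARS1, GARS1, IARS1 and NARS1 rose in both arms. EPRS1 and SARS1, which also rose, and WARS1 had windows with no match, which says only that these letters were not in those windows. The other 6 cytosolic genes measured had medians of +0.02 in Fk and -0.18 in control cultures. 

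Among those, HARS1, the histidyl enzyme, fell. Its signal was 9.74, 9.93 and 9.75 on the Fk arrays at 48 h, against 10.40, 10.40 and 10.54 on the Fk arrays at 12 h. The control arrays gave 9.82, 10.11 and 10.06 at 48 h, against 10.67, 10.57 and 10.64 at 12 h. All 48 h arrays lay below all 12 h arrays, and the difference of -0.64 in Fk (-0.89 to -0.39, adjusted p = 0.00442) and -0.63 in control cultures (-0.88 to -0.38, adjusted p = 0.00515) passed in each of the 22 settings tried. HARS2, whose start lies across the 84-base interval shown above, averaged 8.58 ± 0.12 in Fk and 8.61 ± 0.10 in control cultures at 48 h, against 8.58 ± 0.08 in Fk and 8.63 ± 0.06 in control cultures at 12 h (SD, n = 3 each). Its time difference was +0.00 in Fk (-0.24 to +0.24) and -0.01 in control cultures (-0.25 to +0.23), so the intervals of the HARS1 and HARS2 differences did not meet. The difference between the 2 genes was not itself tested.

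KARS1, the lysyl enzyme, differed by -0.08 in Fk and -0.22 in control cultures, and its control arrays at 48 h (12.90, 12.94 and 12.88) lay just below those at 12 h (13.13, 13.14 and 13.12) without passing the test (adjusted p = 0.138). RARS1, the arginyl enzyme, differed by -0.20 in Fk and -0.13 in control cultures. Its arrays did not overlap between the times in either arm, and neither difference passed the test. The margins were narrow. The highest array at 48 h and the lowest at 12 h were 11.494 and 11.532 in Fk cultures, and 11.522 and 11.527 in control cultures. FARSA and FARSB, the subunits of the phenylalanyl enzyme, had +0.46 and +0.12 in Fk and +0.36 and -0.25 in control cultures, none of which passed. VARS1, the valyl enzyme, had +0.27 in Fk and +0.07 in control cultures. In the multisynthetase complex, IARS1, LARS1 and EPRS1 rose, while KARS1 and RARS1 had differences below 0. Among the 12 free enzymes 6 rose and 1 fell in each arm, where 11.5% of all genes rose and 11.7% fell in Fk and 10.6% rose and 10.9% fell in control cultures.

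**Figure D3:**
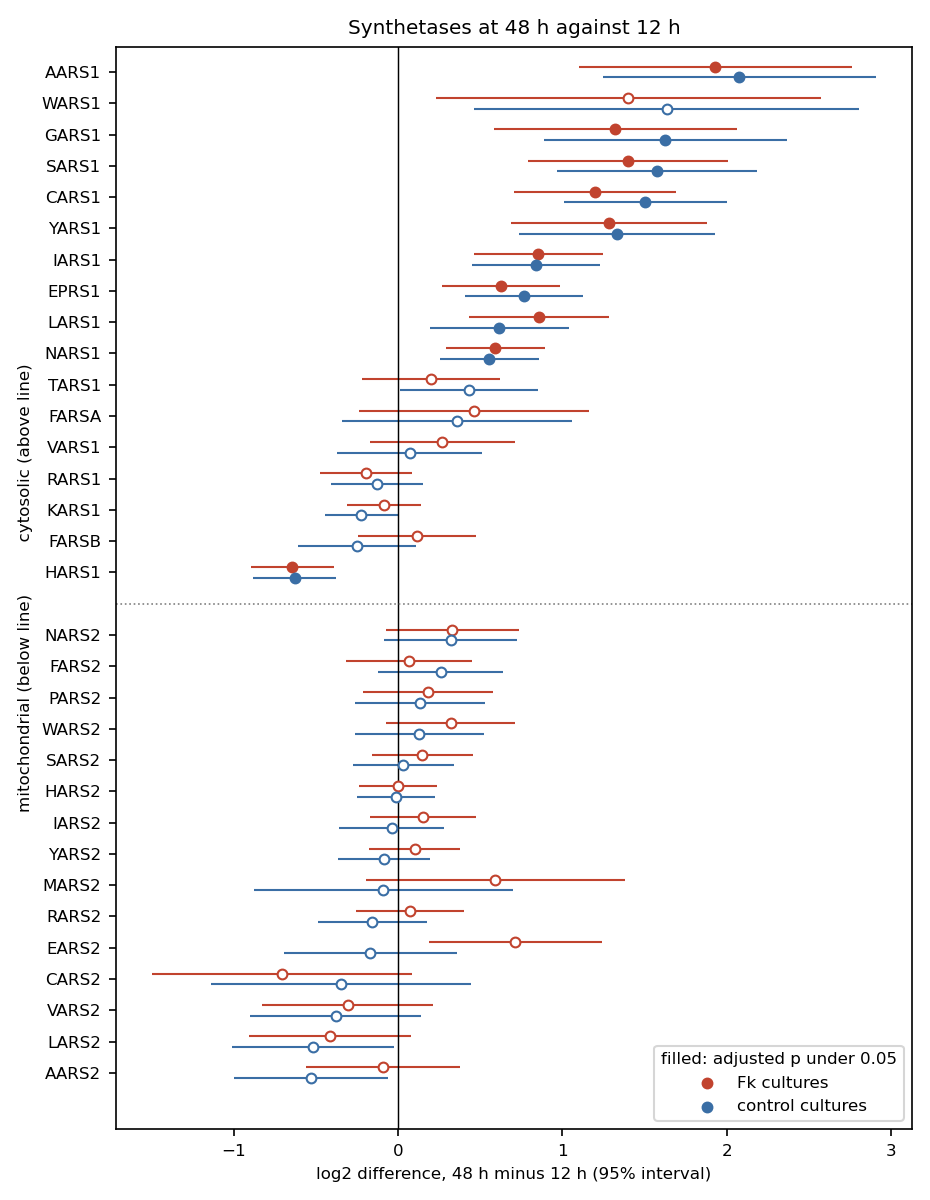
Each point is the log2 difference of a synthetase between 48 h and 12 h (48 h minus 12 h) in Fk (red, upper) or control cultures (blue, lower), with limma's 95% interval; filled points have an adjusted p under 0.05. All 20 filled points belong to 10 cytosolic genes, 9 to the right of 0 and HARS1 to the left.

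The time differences of the mitochondrial enzymes did not pass the test and were mixed in sign, positive for 11 of 15 in Fk and 5 of 15 in control cultures. AARS2, the mitochondrial alanyl enzyme, read 6.57, 6.80 and 6.75 in control cultures at 48 h, against 7.14, 7.19 and 7.37 in control cultures at 12 h. These did not overlap, yet the difference of -0.53 had an adjusted p of 0.1. With Fk_12h replicate 3 left out, an array of the other arm that shares the estimate of spread, the adjusted p was 0.0183. In Fk cultures AARS2 differed by -0.09 and the times overlapped. A second AARS2 probe set above the filter gave -0.006 in control and -0.234 in Fk cultures, so the control difference was not seen on both. LARS2, the leucyl enzyme, had 7.82, 8.37 and 8.51 in Fk and 7.81, 8.04 and 8.63 in control cultures at 48 h. At 12 h it had 8.49, 8.78 and 8.67 in Fk and 8.69, 8.70 and 8.64 in control cultures. Replicate 1 at 48 h was its lowest array in both arms, and the differences were -0.41 (adjusted p = 0.201) in Fk and -0.52 (adjusted p = 0.121) in control cultures. Without control_48h replicate 3 the control difference was -0.75 (adjusted p = 0.0234).

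CARS2, the cysteinyl enzyme, read 4.91, 5.70 and 5.86 in Fk cultures at 48 h, against 6.10, 6.01 and 6.47 in Fk cultures at 12 h. It was lower at 48 h on all 3 arrays, with a difference of -0.71 (adjusted p = 0.176). NARS2, the asparaginyl enzyme, differed by +0.33 in Fk and +0.32 in control cultures (adjusted p = 0.213 and 0.234), and its Fk difference was +0.51 without Fk_12h replicate 3 (adjusted p = 0.048). VARS2, the valyl enzyme, differed by -0.31 in Fk and -0.38 in control cultures, and the control difference had an adjusted p of 0.0227 without Fk_12h replicate 3. IARS2, the isoleucyl enzyme, differed by +0.15 in Fk and -0.04 in control cultures. FARS2, PARS2, WARS2, SARS2, YARS2 and RARS2 had differences between +0.07 and +0.32 in Fk and between -0.16 and +0.26 in control cultures. MARS2, the methionyl enzyme, differed by +0.59 in Fk (adjusted p = 0.249) and -0.09 in control cultures, and by +0.10 in Fk without Fk_12h replicate 3. MARS2 and SARS2 were near the level of 4 used as the filter, with group means of 4.31 to 4.91 for MARS2 and 4.49 to 4.73 for SARS2. Values so near the floor can understate a difference.

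The time differences were also set against each other between the arms. Across the 17 cytosolic genes the time differences of Fk and control cultures, which rest on separate arrays, correlated at r = 0.977, and across the 15 mitochondrial genes at r = 0.553. These are descriptions across genes that share arrays, and genes are not independent replicates. FARSB had opposite signs in the arms, at +0.12 in Fk and -0.25 in control cultures, and neither passed. EARS2, the mitochondrial glutamyl enzyme, had the largest difference between the arms on the probe set used. It read 7.97, 8.06 and 7.71 in Fk and 7.83, 7.51 and 7.35 in control cultures at 48 h. At 12 h it read 7.38, 7.61 and 6.60 in Fk and 7.82, 7.60 and 7.77 in control cultures. The Fk arrays did not overlap between the times, and the lowest of them was Fk_12h replicate 3. Its time difference was +0.71 in Fk (adjusted p = 0.0535) and -0.17 in control cultures (adjusted p = 0.653), and without Fk_12h replicate 3 the Fk value was +0.41. Without Fk_12h replicate 2 it was +0.92 and passed, with an adjusted p of 0.0293. The test of the difference between the arms gave +0.88 (+0.13 to +1.63, adjusted p = 0.996). By limma 0 of the 32 genes passed this test, as did 0% of all genes tested, and EARS2 alone had an unadjusted p under 0.05, beside 3.31% of all genes. EARS2 has 2 further probe sets above the filter, and these gave time differences of +0.06 and +0.14 in Fk, against +0.28 and +0.11 in control cultures, so its probe sets did not give the same difference between the arms.

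**Figure D4:**
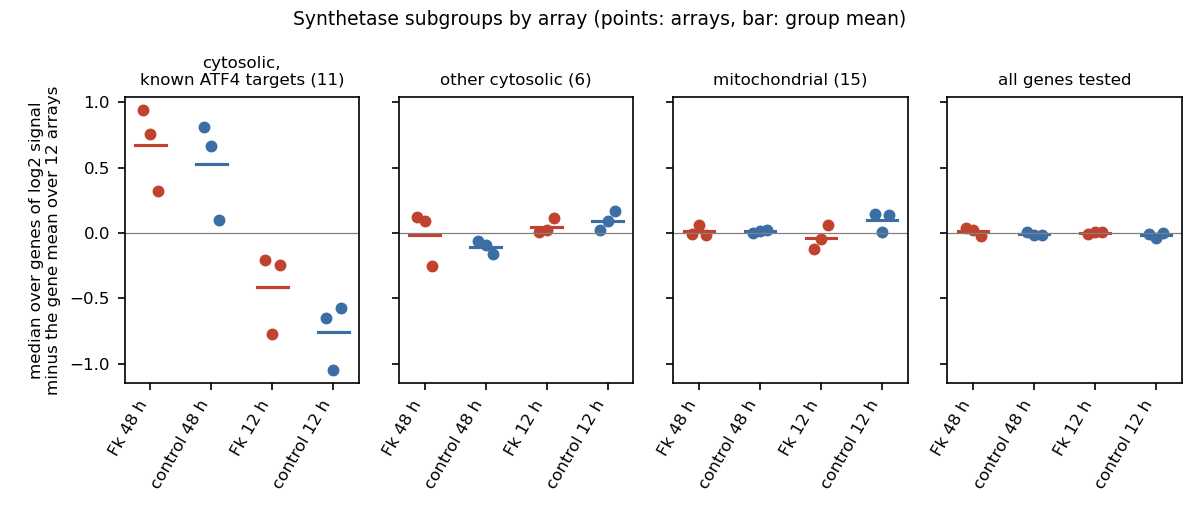
Each point is an array's median, over the genes named above the panel, of the log2 signal minus the gene's mean over 12 arrays; bars are means of 3 arrays. The 11 ATF4-responsive genes sit between 0.10 and 0.94 at 48 h and between -1.05 and -0.21 at 12 h, while the 15 mitochondrial genes and all genes tested stay within 0.15 of 0.

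The arrays of a group were not level in the ATF4-responsive genes. Their median deviation from the mean over 12 arrays was 0.94, 0.76 and 0.32 on the Fk arrays and 0.81, 0.66 and 0.10 on the control arrays at 48 h. At 12 h it was -0.21, -0.77 and -0.25 on the Fk arrays and -0.65, -1.05 and -0.57 on the control arrays. Replicate 3 was thus the lowest at 48 h and replicate 2 the lowest at 12 h in both arms. The range within each group was wider than the median Fk differences of these genes described below, +0.11 at 48 h and +0.28 at 12 h. The 15 mitochondrial genes had medians between -0.12 and 0.15 on every array.

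Other genes of the pathway were taken from lists of known function. Among 18 measured genes of amino acid supply that ATF4 is known to induce, 12 rose over time in Fk and 15 in control cultures, 0 fell in either, beside 11.5% of all genes that rose and 11.7% that fell in Fk and 10.6% and 10.9% in control cultures, and the medians were +1.20 in Fk and +1.34 in control cultures. SLC7A11, the cystine importer, rose by +2.77 in Fk and +3.91 in control cultures, and MTHFD2, an enzyme of mitochondrial folate metabolism, by +0.89 and +1.21. Among 14 sensors and transcription factors of the integrated stress response, 6 rose and 2 fell in Fk, and 8 rose and 1 fell in control cultures, beside the same shares of all genes. TRIB3, a pseudokinase induced by ATF4, rose by +1.59 in Fk and +1.90 in control cultures, and DDIT3, which codes for the stress factor CHOP, by +3.71 and +4.86.

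Further lists held genes that act next to the synthetases. Their calls stand beside 11.5% of all genes that rose and 11.7% that fell in Fk, and 10.6% and 10.9% in control cultures. These lists are short, and whether their calls exceed those shares was not tested. Of the 6 measured elongation and termination factors, EIF5A, which helps ribosomes past stalling sequences, fell in both arms (-0.91 in Fk and -0.87 in control cultures), and the other 5 did not pass. Of 19 mitochondrial translation partners, LRPPRC, which stabilises mitochondrial messenger RNA, rose by +0.44 in Fk and +0.48 in control cultures, and ELAC2, which trims the 3′ ends of tRNA precursors, fell (-0.50 in Fk and -0.60 in control cultures). GATC, a subunit of the enzyme that makes mitochondrial glutaminyl-tRNA from the product of EARS2, rose in Fk cultures (+0.60, adjusted p = 0.0135). In control cultures GATC averaged 9.385 at 48 h, against 9.008 at 12 h. Its control arrays were higher at 48 h without overlap, and the difference did not pass. Of 5 genes of tRNA editing and modification TRIT1, which modifies the base beside the anticodon, rose by +0.88 in Fk and +0.86 in control cultures, and NSUN2, a tRNA methyltransferase, fell in control cultures (-0.31, adjusted p = 0.0497). In Fk cultures NSUN2 averaged 9.908 at 48 h, against 10.063 at 12 h, and did not pass. Of the 3 scaffold proteins of the multisynthetase complex only AIMP1 was measured, and it rose in Fk cultures (+0.42, adjusted p = 0.0477). In control cultures AIMP1 was also higher at 48 h without overlap, at +0.22, and did not pass (adjusted p = 0.263). Its difference between the arms did not pass either (adjusted p = 0.996). Of 9 genes of amino acid sensing by mTORC1, RRAGC and RRAGD, which are Rag GTPases, rose in both arms, RRAGD by +1.33 in Fk and +2.07 in control cultures.

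Between Fk and control cultures no synthetase passed the test. At 48 h and at 12 h 0 of 32 were called by limma, beside 0% of all genes tested at each time, and for the mean of both effects 0 of 32, beside 0.00927%. An unadjusted p under 0.05 was found for 0 of 32 at 48 h, for EARS2 at 12 h and for HARS1 in the mean effect, beside 5.18% of all genes at 48 h, 6.71% at 12 h and 7.94% in the mean effect. The median width of the 95% interval to either side of a synthetase's Fk effect was 0.41 log2 units, so differences well below that were not detectable with 3 arrays a group. These intervals are not adjusted for the number of genes tested, so differences above that width could be missed as well. In the simulated sets described below, 62% of changes of 1 log2 unit were recovered at 12 h. The 17 cytosolic genes had a median Fk difference of +0.10 at 48 h, 14 of them positive, and +0.14 at 12 h, 12 positive. The 15 mitochondrial genes had medians of 0.00 at 48 h, 8 positive, and -0.18 at 12 h, 2 positive; the second was -0.09 with Fk_12h replicate 1 left out and -0.06 with Fk_12h replicate 2 left out. Over all genes tested the medians were +0.02 at 48 h and +0.02 at 12 h, with 53.8% and 53.2% positive.

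**Figure D5:**
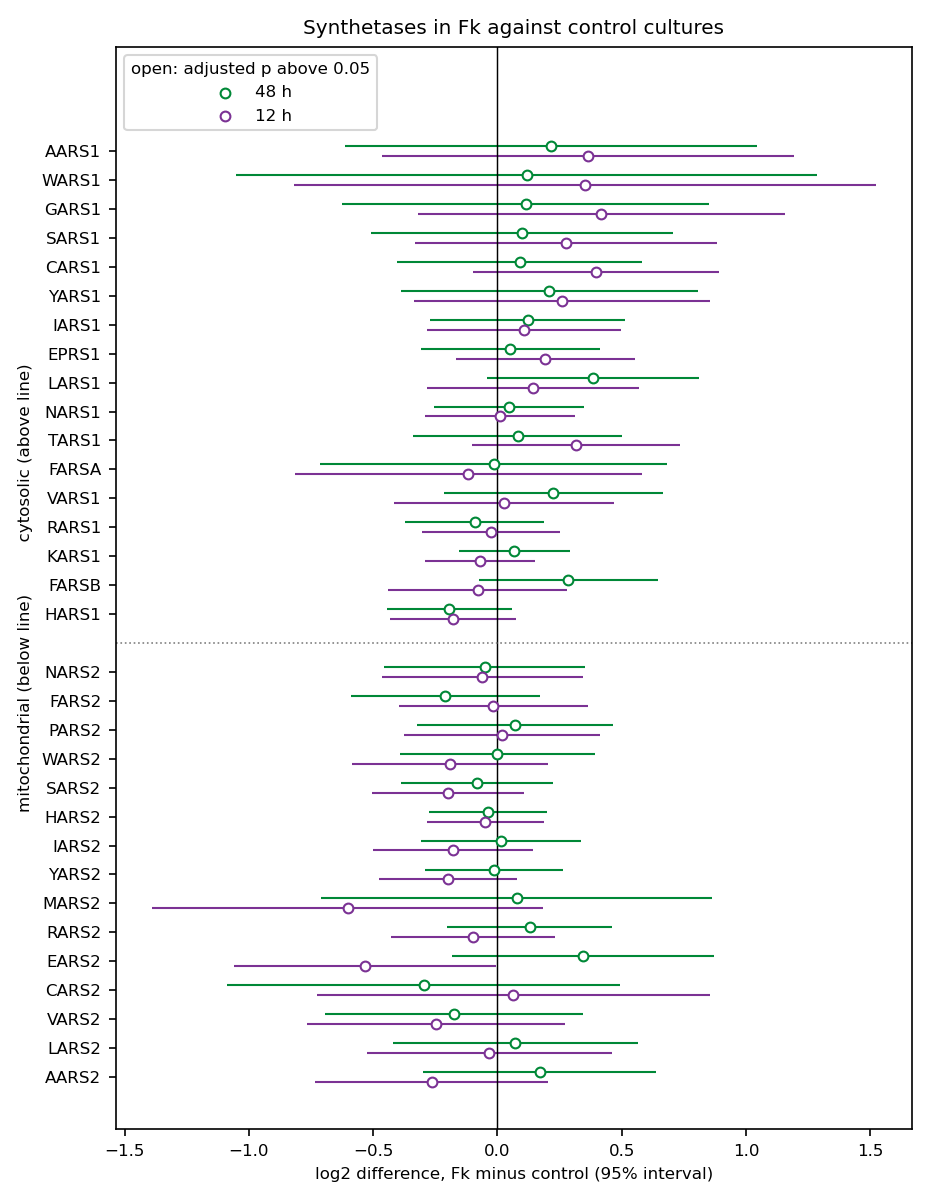
Each point is the log2 difference between Fk and control cultures (Fk minus control) of a synthetase at 48 h (green, upper) or 12 h (purple, lower), with limma's 95% interval; all points are open since none had an adjusted p under 0.05. The intervals of all genes cross 0 except that of EARS2 at 12 h, which ends at -0.01.

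The ATF4-responsive genes were positive for 11 of 11 at both times, with medians of +0.11 at 48 h and +0.28 at 12 h, and the other cytosolic genes had medians of +0.03 and -0.08. A second SARS1 probe set above the filter gave -0.74 at 12 h, and 1 of LARS1 gave -0.03 at 48 h. Several of the 11 move together from array to array, so the count is not 11 separate results. The cytosolic median at 48 h turned to -0.02 with Fk_48h replicate 1 left out and to -0.05 with control_48h replicate 3 left out. Leaving out Fk_48h replicate 3, which was low in these genes, gave +0.29. Leaving out control_48h replicate 1 gave +0.26, and control_48h replicate 2, +0.15. At 12 h the median was +0.21 when Fk_12h replicate 2 was left out, +0.09 when Fk_12h replicate 1 was and +0.06 when control_12h replicate 2 was. Leaving out Fk_12h replicate 3, the array that stood apart, gave +0.13. 

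At 12 h the smallest p-values among the cytosolic genes belonged to CARS1, TARS1, HARS1 and GARS1. CARS1 read 10.28, 9.72 and 10.57 in Fk cultures, against 9.90, 9.62 and 9.85 in control cultures. The difference was +0.40 (-0.10 to +0.89, adjusted p = 0.778), and the groups overlapped. Leaving out Fk_12h replicate 3 gave +0.21, and leaving out Fk_12h replicate 2 gave +0.63. TARS1 read 12.23, 12.01 and 12.44 in Fk cultures, against 11.94, 11.79 and 12.00 in control cultures. All its Fk arrays lay above all control arrays, as was so in this direction for 9.91% of all genes tested, with a difference of +0.32 (adjusted p = 0.789). HARS1 read 10.40, 10.40 and 10.54 in Fk cultures, against 10.67, 10.57 and 10.64 in control cultures. Its Fk arrays all lay below the control arrays, as for 6.49% of all genes tested, with a difference of -0.18 (adjusted p = 0.791). GARS1 differed by +0.42 (adjusted p = 0.812), a value that was +0.21 with control_12h replicate 2 left out and +0.72 with Fk_12h replicate 2 left out.

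Among the mitochondrial genes at 12 h, EARS2 differed by -0.53 (-1.06 to -0.01, adjusted p = 0.739) and MARS2 by -0.60 (-1.39 to +0.18, adjusted p = 0.789). MARS2 read 4.78, 4.81 and 3.33 in Fk cultures, against 4.87, 4.79 and 5.06 in control cultures. In both genes the low array was Fk_12h replicate 3, the array that stood apart, and without it the differences were -0.24 for EARS2 and -0.11 for MARS2. YARS2, the tyrosyl enzyme whose promoter match is shown above, read 9.48, 9.49 and 9.60 in Fk cultures, against 9.83, 9.55 and 9.78 in control cultures. Its groups overlapped, with a difference of -0.20 (adjusted p = 0.791). VARS2 was the only synthetase to pass at 12 h in any of the settings tried, at -0.53 with an adjusted p of 0.0415 when arrays were weighted by quality, which gave Fk_12h replicate 3, at 9.89 the highest VARS2 array, a weight of 0.12. With equal weights it differed by -0.25 (adjusted p = 0.842), and without Fk_12h replicate 3 by -0.58 (adjusted p = 0.415).

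At 48 h the smallest p-values belonged to LARS1, FARSB, HARS1 and VARS1 among the cytosolic genes. LARS1 read 11.90, 11.62 and 11.29 in Fk cultures, against 11.35, 11.42 and 10.88 in control cultures. The groups overlapped, with a difference of +0.38 (-0.04 to +0.81, adjusted p = 0.994). Leaving out Fk_48h replicate 3 gave +0.54, and leaving out control_48h replicate 3 gave +0.21. Its other probe sets gave +0.40, +0.08 and -0.03. FARSB differed by +0.29 and VARS1 by +0.23 (adjusted p = 1 for each), and VARS1 by +0.07 without Fk_48h replicate 1. HARS1 read 9.74, 9.93 and 9.75 in Fk cultures, against 9.82, 10.11 and 10.06 in control cultures, a difference of -0.19 with overlap. Over both times its mean Fk difference was -0.19 (-0.37 to -0.01), the smallest p among the synthetases, with an adjusted p of 0.594.

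Among the mitochondrial genes at 48 h, EARS2, FARS2 and RARS2 had the smallest p-values, each with an adjusted p of 1. EARS2 differed by +0.35 on the probe set used, while its other probe sets above the filter gave -0.39 and -0.19, so its sign was not settled. FARS2, the phenylalanyl enzyme, read 8.04, 8.19 and 8.06 in Fk cultures, against 8.35, 8.36 and 8.19 in control cultures. The Fk arrays lay below the control arrays, by a difference of -0.21, but a second probe set gave +0.02. VARS2 did not overlap either, with 8.86, 8.94 and 8.93 in Fk cultures, against 9.09, 8.94 and 9.21 in control cultures. The margin was very narrow, with the highest Fk array at 8.938 and the lowest control array at 8.944. FARS2 and VARS2, 2 of the 32 genes, thus lay lower without overlap, beside 4.02% of all genes tested, and 0 of 32 lay higher, beside 6.14%. RARS2, the arginyl enzyme, differed by +0.13; leaving out control_48h replicate 2 gave +0.02, and leaving out control_48h replicate 3 gave +0.24.

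The pathway lists likewise held no gene that passed between Fk and control cultures. The genes of amino acid supply had a median of +0.08 at 48 h, 10 of 18 positive, and +0.58 at 12 h, 17 of 18 positive. At 12 h 9 of them had an unadjusted p under 0.05, beside 6.71% of all genes, among them PHGDH, the first enzyme of serine synthesis, at +0.89 (adjusted p = 0.575). ASNS, PHGDH, CHAC1, SESN2 and CTH of these read highest on Fk_12h replicate 3, the array that stood apart. CTH, for one, read 10.78 there, against 8.58 and 7.62 on the other Fk arrays. PSPH, MTHFD2, SLC7A11 and SLC1A5 read highest on Fk_12h replicate 1. The values of these lists were not recomputed without replicate 3. The 14 sensors and factors of the integrated stress response had medians of +0.01 at 48 h and +0.19 at 12 h, with ATF4 itself at +0.55 at 12 h (adjusted p = 0.751). ATF4 read 12.77, 12.01 and 13.07 on the Fk arrays at 12 h, the highest being replicate 3. NSUN2 had the smallest p among the tRNA-modifying genes at both times, at -0.25 at 48 h and -0.40 at 12 h, with no overlap between Fk and control arrays and adjusted p of 0.904 and 0.575.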

How the data were processed

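The deposited values were per-probe-set GCRMA values of 12 arrays, per the submitters' processing notes; GCRMA models background from probe sequence, equalises quantiles and summarises probes, and its version is not given in the sources used here. By their range the deposited values are on the log2 scale. Of 54675 probe sets, 41097 had 1 symbol in GEO's platform annotation. A gene was represented by the probe set with the highest mean among those, and tested if it reached 4 on at least 3 arrays, which 10784 of 19775 genes did. Levels of different probe sets were not compared. limma 3.58.1 (R 4.3.3) fitted 4 group means over all 12 arrays (8 residual and 2.44 prior degrees of freedom); tests were two-sided, with p-values adjusted by Benjamini-Hochberg across every gene tested and a threshold of 0.05. Groups came from the labels.

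The members, lists, tests and the rule for named genes were chosen with earlier results of these data known. The rule named, per contrast, the 4 cytosolic and 3 mitochondrial genes with the smallest p, WARS1 and the brightest of each subgroup (IARS1, KARS1, IARS2). Lists were described by counts and medians. GRCh38.p14 coordinates and promoter sequences are RefSeq's; 5 listed genes had no window. For 10 simulated sets of 10784 genes with 200 changed, the Fk comparison at 12 h recovered 62% of changes of 1 log2 unit and 93.6% of 2, with 6.9 false calls per set, under independent normal noise. In all, 22 alternatives were tried, 12 of which left out an array. Summaries and plots used Python 3.11.15, pandas 2.3.3 and matplotlib 3.10.9.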

Additional observations from a re-analysis of the deposited data

How the results depend on the processing

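Of 390 recomputed counts and medians, 377 stayed near the main value, and counts of 0 that remained 0 are among them. For a median, near meant within the pooled spread of array medians within groups. That spread was 0.205 log2 units for the cytosolic and 0.063 for the mitochondrial genes. The sign was not part of this rule, and the cytosolic Fk median at 48 h changed sign in some settings. The number of called synthetases was 19 in Fk and 17 in control cultures over time, and 1 between Fk and control cultures at 12 h (VARS2), with array quality weights, which called 49.6%, 45.6% and 1.45% of all genes; the cause was not tested. Without probe sets marked _x_at or _s_at, which leaves fewer members tested, it was 6 in Fk and 5 in control cultures over time, beside 22.1% and 19.8% of all genes. With single arrays left out it ran from 7 to 11 in Fk and from 8 to 13 in control cultures. The share of all genes called then ran from 12% to 25.9% in Fk and from 9.84% to 32% in control cultures. The mitochondrial median was -0.10 between Fk and control at 12 h with a level of 6 on at least 3 arrays, and -0.019 over time in control cultures with array quality weights. With single arrays left out it ran from -0.219 to -0.063 for Fk minus control at 12 h, from 0.083 to 0.194 for the difference of the Fk effects, from -0.145 to -0.021 over time in control and from 0.028 to 0.14 in Fk cultures. EARS2 between Fk and control cultures at 48 h was -0.09 as the mean of its probe sets. Among single genes, 13 recomputed values passed that had not. Same-numbered replicates deviated together at 0.04, 0.27 and 0.16 at 12 h and 0.80, -0.03 and 0.61 at 48 h. Crossing replicates 1 and 3 at 48 h gave -0.703 and -0.699. Whether the numbers mark pairs is not in the labels and was not tested. The main fit took no pairs, so variation shared by same-numbered arrays stayed in its spread. With a replicate block within time, 14 synthetases passed in Fk and 13 in control cultures over time, beside 32.9% and 31.7% of all genes, and 0 between Fk and control. Between Fk and control the block raised the genes with an unadjusted p under 0.05 from 559 to 983 at 48 h. At 12 h it raised them from 724 to 1264. Of 15 members with several probe sets, 6 had differing signs between Fk and control at 48 h and 3 at 12 h. MARS2 and SARS2, near the background floor, are limited most by signal.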

Other observations

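The synthetases also fall into class I and class II, structural families with different folds of the catalytic domain. Over time 5 of 17 class I and 4 of 15 class II members rose in each arm, and HARS1, of class II, fell, where 11.5% of all genes rose and 11.7% fell in Fk and 10.6% rose and 10.9% fell in control cultures. The medians were +0.32 in Fk and -0.04 in control cultures for class I, and +0.18 and +0.26 for class II. The members that rose in class I were CARS1, EPRS1, IARS1, LARS1 and YARS1, and those in class II AARS1, GARS1, NARS1 and SARS1. EPRS1, which charges both glutamate and proline, was counted in class I only. Both classes held ATF4-responsive genes, and a difference between the classes was not tested.

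For some amino acids the cytosolic gene rose while its mitochondrial counterpart did not pass the test. AARS1 rose by +1.93 in Fk and +2.08 in control cultures, while AARS2 differed by -0.09 and -0.53 on the probe set used. A second AARS2 probe set gave -0.234 in Fk and -0.006 in control cultures. SARS1 rose by +1.40 and +1.58, while SARS2 differed by +0.15 and +0.03. YARS1 rose by +1.28 and +1.34, while YARS2, which has a promoter match, differed by +0.10 and -0.08. These pairs were chosen after their values were seen, and the difference within a pair was not tested. In another pair, NARS1 rose by +0.59 and +0.56, and NARS2 differed the same way by +0.33 and +0.32.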
